A study of Mus musculus with 39 samples.

Results

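The expression of 10 circadian clock genes was examined in microglia of wildtype (WT) and 5XFAD mice that lived in normoxia (NX) or in chronic intermittent hypoxia (CIH). Arntl, Clock, Per1, Per2, Per3, Cry1, Cry2, Nr1d1, Nr1d2 and Dbp were chosen by name, and all 10 were found by symbol among the 46333 genes of the female table and among the 54532 genes of the male table. Cells from dissociated cerebral tissue were bound with magnetic beads against CD11b, a surface protein of myeloid cells, and their mRNA was sequenced in bulk. The females were 10 months old, with 4 libraries of WT NX mice and 5 each of WT CIH, 5XFAD NX and 5XFAD CIH mice, and the males were 8 months old, with 5 libraries in each of these groups. 5XFAD mice carry mutant human transgenes of familial Alzheimer's disease that are driven in neurons, and they form amyloid plaques that WT mice lack. CIH, a model of the oxygen swings of sleep apnea, began at 4 months of age, and by the labels it moved the oxygen between 6.5% and 21% in 90-s intervals for 8 h each day. The methods of the study give a slightly lower minimum and a longer daily span, which lay in the presumed sleep period, whereas NX mice received the same noise and airflow at 21% oxygen. Each library was taken as 1 animal. Sex and age differed together between the tables, so each was analysed alone, and differences between the tables were not tested.

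The circadian clock is a feedback loop of transcription that runs in nearly every cell and is set by light, feeding, activity and glucocorticoids. Its activators, BMAL1 (the product of Arntl) and CLOCK, pair on E-box sequences and switch on the Per and Cry genes, whose proteins then repress BMAL1 and CLOCK. Nr1d1 and Nr1d2 encode the nuclear receptors REV-ERBα and REV-ERBβ, which repress Arntl, and Dbp encodes an activator that binds D-box sequences, so the mRNAs of Nr1d1, Dbp and the Per genes peak at times of day when Arntl is low. Microglia, the resident macrophages of the brain, have such a clock. The hour of tissue collection is not given in the sources used here, and its part in the differences reported here was not tested.

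The libraries held 14731683 to 25906121 counts in females and 13457293 to 23095627 in males, and the smallest count of any of the 10 genes was 65 in females and 22 in males, both for Per2. Levels are given in CPM, the counts of a gene scaled to a common library total, after trimmed mean of M values (TMM) scaling across each table. Microglia markers were high in every library, with P2ry12 at 1464 to 3967 CPM in females. Cst7, a gene of plaque-associated microglia, separated the genotypes with 1 exception. It was 7.74 to 17.3 CPM in female WT libraries and 1152 to 2459 CPM in the other 4 female 5XFAD NX libraries, but 16.2 CPM in the library labelled F 5XFAD NX 4, so calls that changed without this library are given with and without it. In males the libraries M 5XFAD NX 4 and M 5XFAD NX 5 stood apart, and results were also computed without both. On the first principal component they lay at −1.92 and −3.63, against 78.8 to 80.2 for the other 3 of their group. On the second they lay at −72.6 and −73.1, against 15.4 to 26.2. M 5XFAD CIH 1 and 2 were also low on the second component, at −42.8 and −47.8. The next lowest library of that group was at −14.5, and this pair was not left out together. Fewer cells of a type and less RNA per cell cannot be told apart in such bulk libraries.

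Levels can be compared between genes only per length, for which the deposited FPKM values (fragments per kilobase, scaled by sequencing depth) serve. For Per3, Clock and Dbp the female values imply shorter gene lengths than those given for males. The order of the genes depends on the lengths used, so it is given for each sex alone. In females Nr1d2 had the highest mean level of the 10 genes, 31.1 ± 8.11 FPKM (SD over 19 libraries), followed by Dbp at 13.4 ± 6.42, Per3 at 10.8 ± 5.33, Per1 at 10.4 ± 2.29, Clock at 7.70 ± 1.08 and Nr1d1 at 5.32 ± 2.52. Neighbours from Dbp to Per1 differed by less than these SDs, and their order turned with genotype. In WT NX the mean FPKM was 15.6 for Dbp, 12.6 for Per3 and 9.62 for Per1, and in 5XFAD CIH it was 10.8, 7.65 and 12.2. The genes Cry2, Arntl, Cry1 and Per2 were lowest with means from 2.14 to 3.24 FPKM. In males Nr1d2 had the highest mean over all libraries, 16.4 ± 5.62 FPKM over 20 libraries, then Per1 at 13.8 ± 6.68, Dbp at 7.04 ± 2.81 and Nr1d1 at 5.201 ± 2.21, and the remaining 6 genes had means from 1.38 to 3.44 FPKM. That order did not hold in every male group, since Per1 had a mean of 21.9 FPKM and Nr1d2 of 13.7 FPKM in 5XFAD CIH. In 5XFAD NX Nr1d2 stayed highest at 12.7 FPKM, with Per1 close at 12.1 FPKM, but Clock, at 3.15 FPKM, lay above Nr1d1, at 2.78 FPKM. Arntl and Per2, an activator and a repressor of the loop, were among the 4 lowest in each table, by the lengths that table used.

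In GRCm38, Per3 lies at chr4:151003652-151044665 on the minus strand, Cry1 at chr10:85131700-85185064 on the minus strand, Nr1d1 at chr11:98767932-98775333 on the minus strand and Dbp at chr7:45705088-45710203 on the plus strand. Per1 is at chr11:69095217-69109960, plus strand, Per2 at chr1:91415982-91459324, minus strand, Arntl at chr7:113207465-113314126, plus strand, and Clock at chr5:76209868-76304792, minus strand. Cry2 is at chr2:92403646-92434043 and Nr1d2 at chr14:18204054-18239127, both on the minus strand. Exons of Dbp share 539 bases (18.01% of its exonic length) with Sphk2 on the opposite strand, and those of Nr1d1 share 263 bases (8.55%) with Thra. Cry2 shares 295 bases (4.67%) with D930015M05Rik and Arntl 33 bases (0.44%) with Gm45355. Whether strand was used in counting is not given in the sources used here, so reads in these stretches cannot be assigned to 1 strand with certainty.

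RefSeq promoter windows of GRCm38.p6, 250 bases before to 50 after the start of a gene, were found for 9 of the 10 genes, some with more than 1 start, and not for Per2. Each was searched on both strands for 5 motifs. The first was the E-box CACGTG, which reads the same on either strand. A variant of it, CACGTT, is found as AACGTG where it lies on the opposite strand. The D-box was searched as TTATGTAA and, separately, as the palindrome TTACGTAA. Lastly, the windows were searched for TAGGTCA, which holds the core that REV-ERB and its opponent ROR bind. No matches in these genes overlapped. Such a match is a description of letters and not a proof of binding. Of 32851 windows, 7.15% held CACGTG, 4.68% CACGTT, 1.06% a D-box of either form and 2.61% TAGGTCA. The windows of 6 of the 9 genes held at least 1 of these. Per3 held TTATGTAA at −205 and again at −158 from the start, and 8 of all windows (0.0244%) held a D-box more than once. Cry1 held CACGTG at −60 and AACGTG at −79, Per1 held CACGTG at −166, and AACGTG lay at −28 in Nr1d1 and at −166 in Cry2. TAGGTCA lay at +31 in Arntl, the gene that REV-ERB represses, while the windows of Dbp, Clock and Nr1d2 held none of the motifs. The stretches from −250 to −11 of Per3, Cry1 and Nr1d1, which carry a D-box pair, 2 neighbouring E-box forms and a single E-box variant, are printed 5′ to 3′ on the strand of the gene, with the matches in capitals.
Per3, chr4:151044676-151044915, minus strand: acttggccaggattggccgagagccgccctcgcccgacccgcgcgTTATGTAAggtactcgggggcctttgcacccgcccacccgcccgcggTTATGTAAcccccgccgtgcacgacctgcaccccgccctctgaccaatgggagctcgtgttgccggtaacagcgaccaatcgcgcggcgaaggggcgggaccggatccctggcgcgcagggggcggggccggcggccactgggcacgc
Cry1, chr10:85185065-85185304, minus strand: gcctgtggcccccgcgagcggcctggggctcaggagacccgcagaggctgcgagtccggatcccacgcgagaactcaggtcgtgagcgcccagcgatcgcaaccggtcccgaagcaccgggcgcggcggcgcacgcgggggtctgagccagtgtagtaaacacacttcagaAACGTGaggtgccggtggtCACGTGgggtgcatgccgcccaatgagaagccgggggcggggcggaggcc
Nr1d1, chr11:98775388-98775627, minus strand: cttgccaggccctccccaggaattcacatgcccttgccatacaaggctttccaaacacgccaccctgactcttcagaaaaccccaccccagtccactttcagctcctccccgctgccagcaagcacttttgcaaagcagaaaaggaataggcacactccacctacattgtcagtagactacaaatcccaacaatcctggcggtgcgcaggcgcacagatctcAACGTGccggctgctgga

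The comparison of genotypes under CIH asked how the clock genes of 5XFAD microglia differ from those of WT microglia when both have been exposed. In males, 5XFAD CIH libraries held more Per1 than WT CIH libraries, while Per2, Per3, Cry1, Clock, Nr1d1 and Nr1d2 were lower in 5XFAD CIH, so that 7 of the 10 genes were called at an adjusted p under 0.05 (edgeR quasi-likelihood test with Benjamini-Hochberg adjustment over all genes). All genes served as the background, of which 49% were called, 25.3% as higher and 23.7% as lower, against 1 and 6 of the 10 clock genes. The median log2 fold change (log2FC) of the 10 was −0.56 and that of all genes −0.06.

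Per3, a repressor of the period family, was 45.3, 53.7, 53.5, 53.3 and 49.6 CPM in the male WT CIH libraries and 21.9, 17.5, 23.5, 25.5 and 24.7 CPM in 5XFAD CIH. The groups were far apart and did not overlap, with a log2FC of −1.17 (SE 0.11, adjusted p = 1.11e-06). Per2, its paralog, was 13.1, 14.7, 9.82, 14.0 and 9.30 CPM in WT CIH and 4.63, 5.80, 8.77, 7.73 and 6.42 CPM in 5XFAD CIH. These did not overlap either, and the log2FC was −0.86 (SE 0.20, adjusted p = 0.00268). Per1, the period gene that also responds acutely to glucocorticoids and cyclic AMP, went the other way. It was 80.6, 52.5, 63.8, 56.6 and 57.1 CPM in WT CIH and 177, 186, 91.6, 79.5 and 89.5 CPM in 5XFAD CIH. Replicates 1 and 2 of 5XFAD CIH were the highest of the table and replicate 4 lay just below the highest WT CIH library, with a log2FC of 1.02 (SE 0.23, adjusted p = 0.00253). The Per1 difference with replicates 1 and 2 both left out was not tested.

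Several marker lists differed between these male groups. The summed level of 9 glucocorticoid-responsive genes was 602 to 690 CPM in male WT CIH and 1067, 1042, 709, 725 and 986 CPM in 5XFAD CIH, with 4 of 8 tested called higher and 1 lower and with Mt2 at 0 in both groups. The sum of 14 genes induced by tissue dissociation was 1696 to 2827 CPM in WT CIH and 1919 to 4141 CPM in 5XFAD CIH, and 5 of the 14 were called higher and 0 lower. Most of its members went the other way, with 8 of 14 negative and a median log2FC of −0.28, and the 35.7% called was below the 49% of all genes. Hypoxia-responsive genes summed to 208 to 257 and 387 to 585 CPM without overlap, with 5 of 9 tested higher and 0 lower. Microglia markers summed to 25555 to 30072 and 21297 to 23095 CPM without overlap, with 4 of 8 lower and 1 higher, and border macrophage markers to 122 to 261 and 80.4 to 151 CPM, with 2 of 6 lower. Astrocyte markers summed to 150 to 208 CPM in WT CIH and 211 to 576 CPM in 5XFAD CIH, with 1 of 5 called higher, 2 lower and no marker at 0. Gfap, the intermediate filament of astrocytes, was 0.125 to 1.72 CPM in WT CIH and 102 to 423 CPM in 5XFAD CIH, whereas Slc1a3 was 129 to 167 and 68.9 to 125 CPM. Endothelial markers had 1 of 5 higher and 1 lower, oligodendrocyte markers 1 of 5 higher, neutrophil markers 1 of 5 lower and neuron markers none called. The part of these lists in the clock gene differences was not tested.

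Of the remaining genes, Clock, which encodes the partner of BMAL1, was 52.0, 62.1, 65.9, 54.9 and 59.7 CPM in male WT CIH and 45.4, 43.96, 31.9, 35.1 and 37.4 CPM in 5XFAD CIH. Every exposed 5XFAD male lay below every exposed WT male, at a log2FC of −0.59 (SE 0.11, adjusted p = 0.000666). Nr1d2 was 92.8, 105, 141, 149 and 143 CPM in WT CIH and 85.3, 89.2, 55.1, 69.6 and 76.0 CPM in 5XFAD CIH. Again the groups did not overlap, and the log2FC was −0.74 (SE 0.15, adjusted p = 0.00124). Nr1d1, its paralog, was 20.4, 18.6, 18.99, 25.0 and 17.5 CPM against 12.5, 18.1, 13.8, 11.05 and 13.8 CPM. Only the second 5XFAD CIH library reached into the WT range, and the log2FC was −0.53 (SE 0.15, adjusted p = 0.0105).

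Cry1, a cryptochrome repressor, was 6.15 to 10.7 CPM in male WT CIH and 3.61 to 8.26 CPM in 5XFAD CIH. Its log2FC was −0.68 (SE 0.25, adjusted p = 0.035), and this call was lost without any of 7 libraries, WT CIH 1, 3 and 5 and 5XFAD CIH 2, 3, 4 and 5, with a highest adjusted p of 0.0952. Arntl (log2FC −0.46, SE 0.20, adjusted p = 0.0676), Cry2 (−0.35, SE 0.21, adjusted p = 0.181) and Dbp (−0.28, SE 0.16, adjusted p = 0.16) were not called. The filter of the study, an absolute log2FC above 1 at an adjusted p under 0.05, held for Per1 and Per3, 2 of the 10 genes, and for 18.7% of all genes. The groups did not overlap for Clock, Per2, Per3 and Nr1d2, 4 of the 10, and for 35.9% of all genes. With scaling by library size alone, which moved the median of all genes by −0.37, 1 clock gene was higher and 9 were lower, and the calls over all genes went from 3739 higher and 3509 lower to 2205 and 6800.

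**Figure D1:**
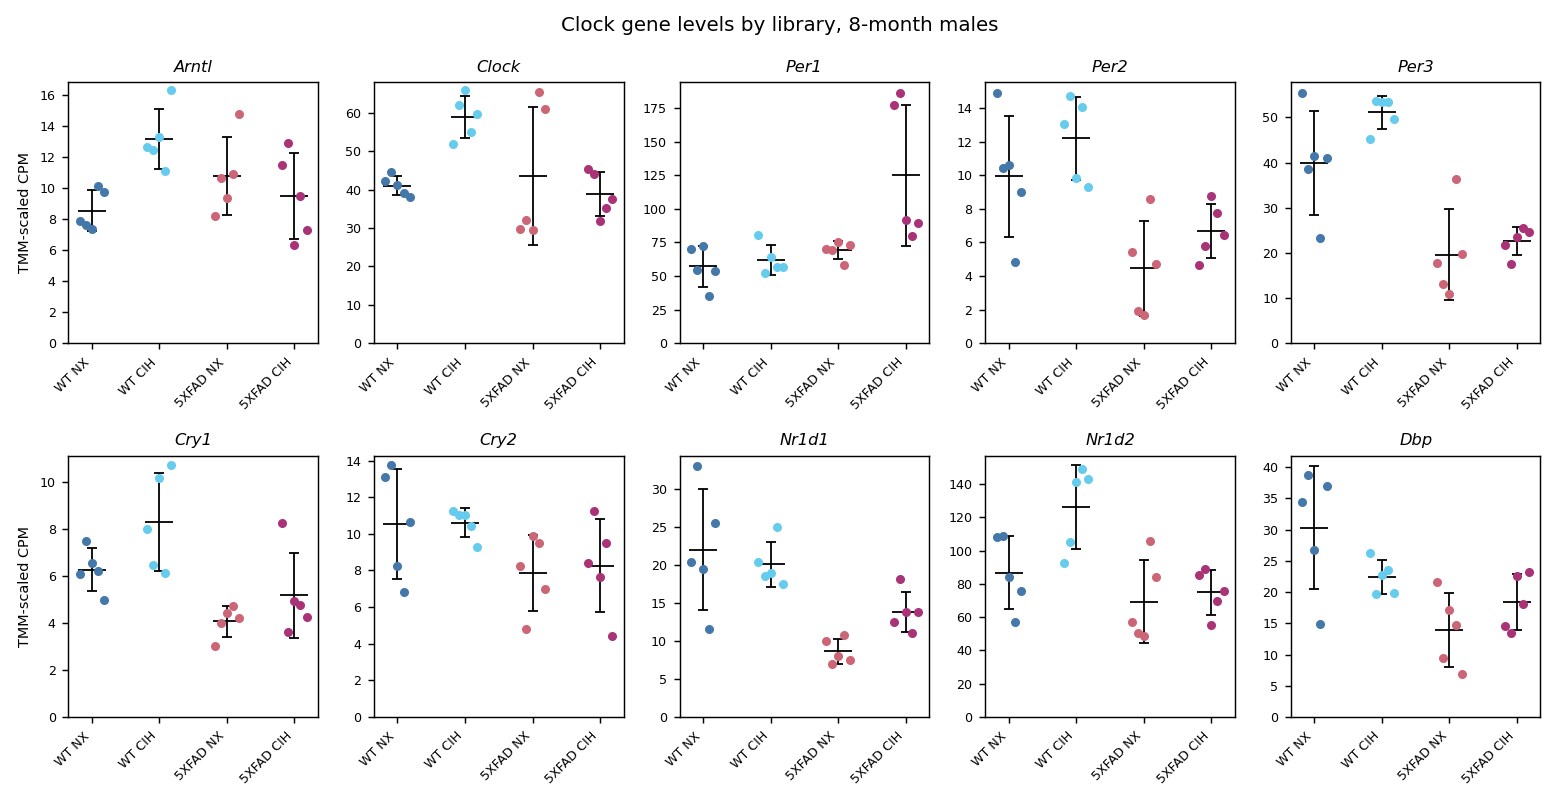
The 10 clock genes in the 20 male libraries, 1 panel per gene. The y axis is the TMM-scaled level in CPM, each point is a library, and the bars give the mean ± SD of the 5 libraries of each group on the x axis. Per3 sits at 17.5 to 25.5 CPM in all 5XFAD CIH libraries against 45.3 to 53.7 CPM in WT CIH, and Clock and Nr1d2 are split in 5XFAD NX, where replicates 4 and 5 are high.

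In females under CIH Per1 was higher and Per2, Per3, Nr1d1, Nr1d2 and Dbp were lower in exposed 5XFAD than in exposed WT mice, 6 of the 10 genes, while 51.9% of all genes were called, 26.2% as higher and 25.7% as lower. The median log2FC was −0.33 for the 10 and −0.02 for all genes, and none of the 6 passed the fold limit of the study. Per1 was 61.3, 46.0, 47.3, 51.0 and 45.6 CPM in WT CIH and 84.7, 80.9, 97.0, 63.0 and 71.8 CPM in 5XFAD CIH. It was the 1 gene of the 10 whose groups did not overlap, against 38.4% of all genes, with a log2FC of 0.68 (SE 0.11, adjusted p = 0.000191).

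Per3 was 88.0, 76.4, 45.4, 54.1 and 75.3 CPM in female WT CIH and 38.1, 42.0, 55.4, 23.2 and 26.0 CPM in 5XFAD CIH. WT CIH 3 and WT CIH 4 lay within the 5XFAD range, and the log2FC was −0.86 (SE 0.23, adjusted p = 0.00626). Nr1d1 was 19.7, 20.2, 17.4, 20.9 and 26.9 CPM in WT CIH and 12.6, 14.4, 20.5, 8.75 and 6.97 CPM in 5XFAD CIH. The third 5XFAD CIH library alone reached the WT range, at a log2FC of −0.71 (SE 0.23, adjusted p = 0.0185). That library was also the highest of its group for Per1, Per2, Per3, Cry2, Nr1d2 and Dbp.

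Per2 was 9.36 to 27.0 CPM in female WT CIH and 5.66 to 14.1 CPM in 5XFAD CIH (log2FC −0.89, SE 0.29, adjusted p = 0.0194), and its adjusted p was 0.0541 without WT CIH 1 and 0.05 without 5XFAD CIH 5. Dbp was 16.4 to 39.5 against 11.2 to 27.4 CPM (log2FC −0.66, SE 0.25, adjusted p = 0.0412) and Nr1d2 122 to 182 against 106 to 146 CPM (log2FC −0.29, SE 0.11, adjusted p = 0.0381). The calls of both were lost without any of WT CIH 1, 2 and 5 and 5XFAD CIH 2, 4 and 5, with highest adjusted p values of 0.1 for Dbp and 0.0961 for Nr1d2, and in a single fit of all 4 female groups, at 0.093 for Dbp and 0.124 for Nr1d2. Clock (log2FC −0.12, SE 0.07), Arntl (−0.12, SE 0.16), Cry1 (−0.38, SE 0.18) and Cry2 (−0.03, SE 0.13) were not called.

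Cell markers differed between these female groups as well. Microglia markers summed to 27185 to 31186 CPM in WT CIH and 21892 to 23797 CPM in 5XFAD CIH, with 5 of 8 called lower and 1 higher, and border macrophage markers to 118 to 240 and 54.8 to 100 CPM, with 5 of 6 lower. Astrocyte markers summed to 156 to 190 and 218 to 612 CPM, with 2 of 5 higher and 1 lower, and Gfap alone went from 0.257 to 1.34 CPM in WT CIH to 95.3 to 405 CPM in 5XFAD CIH. No marker of these lists was at 0. The 9 glucocorticoid-responsive genes summed to 507 to 634 and 746 to 921 CPM without overlap, with 5 higher and 2 lower, and 10 hypoxia-responsive genes to 280 to 318 and 529 to 658 CPM, with 8 of 9 tested higher and 0 lower. Neutrophil markers summed to 33.5 to 71.0 and 14.6 to 46.9 CPM, with 3 of 4 tested lower. Endothelial markers summed to 45.4 to 119 and 150 to 222 CPM without overlap, although 4 of 5 were negative, with 1 called higher and 1 lower. Oligodendrocyte markers had 1 of 4 tested higher and 1 lower, neuron markers 1 of 4 lower, and dissociation genes 2 of 14 higher. Their part in the clock gene differences was not tested. With scaling by library size alone, which moved the median of all genes by −0.19, 1 clock gene was higher and 7 were lower, and all calls went from 3906 higher and 3833 lower to 2610 and 6288.

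**Figure D2:**
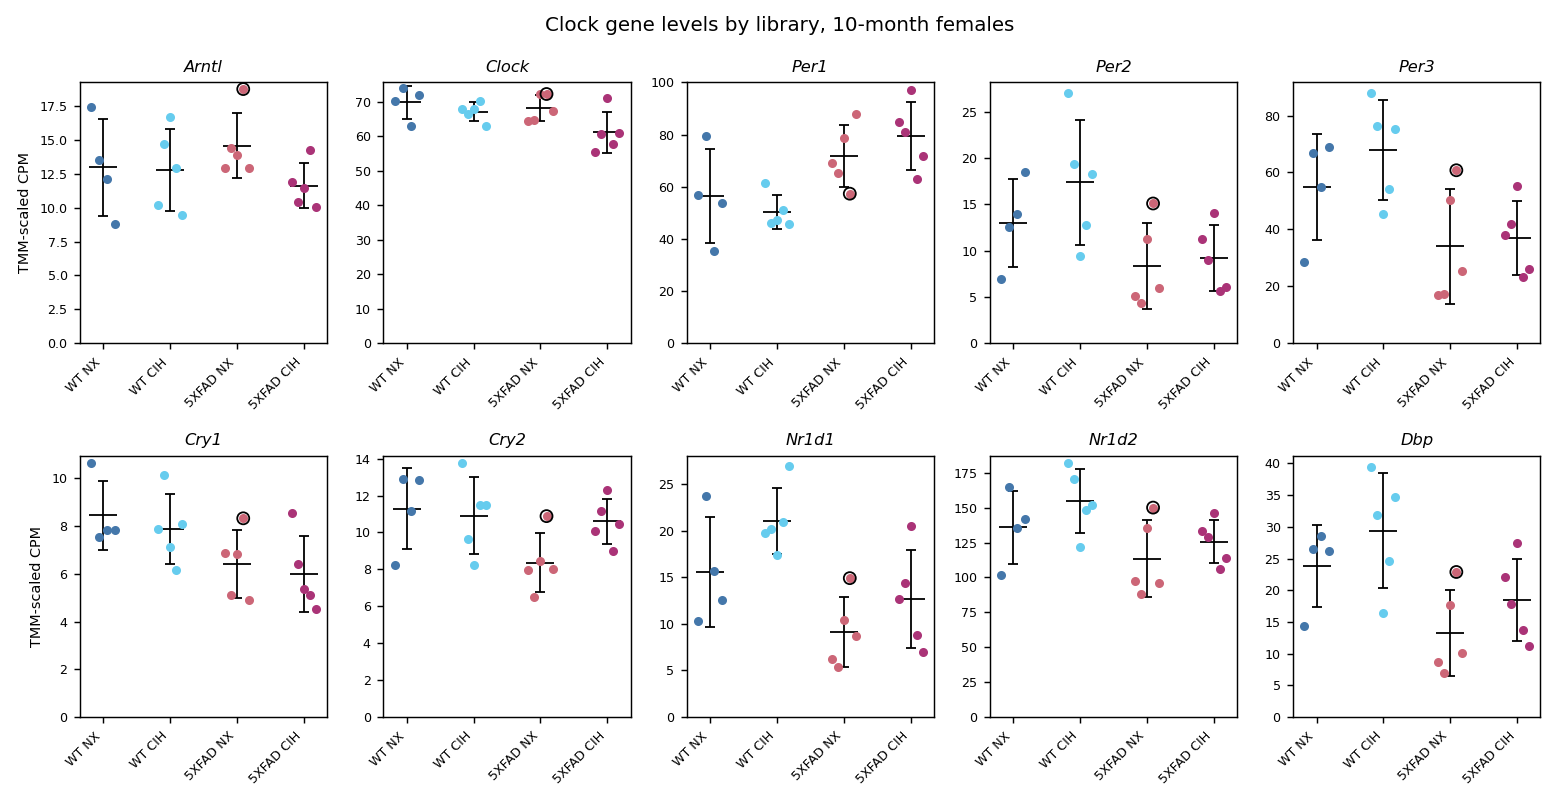
The 10 clock genes in the 19 female libraries, drawn as for the males: TMM-scaled CPM on the y axis, group on the x axis, a point per library, and bars for the mean ± SD. The circled point is the library labelled F 5XFAD NX 4, which is the highest of its group for Arntl, Per2, Per3, Cry1, Cry2, Nr1d1, Nr1d2, Dbp and, barely, Clock and the lowest for Per1.

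The same comparison in normoxia asked how the clock genes differed between the genotypes without hypoxia. In males, Nr1d1, Dbp and Per3 were lower in 5XFAD NX than in WT NX, 3 of the 10 genes against 17.8% of all genes called in either direction and 7.37% called lower, and all 3 passed the fold limit, which held for 8.25% of all genes. The median log2FC was −0.52 for the 10 and 0.02 for all genes. Nr1d1 was 20.4, 33.0, 19.5, 11.5 and 25.6 CPM in WT NX and 9.99, 7.02, 7.97, 10.8 and 7.46 CPM in 5XFAD NX. No library of 5XFAD NX reached the WT range, as was so for 2 of the 10 genes and 16% of all genes, and the log2FC was −1.34 (SE 0.25, adjusted p = 0.0025).

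Dbp was 34.4, 38.8, 26.7, 14.9 and 37.0 CPM in male WT NX and 21.6, 9.41, 17.2, 14.7 and 6.90 CPM in 5XFAD NX. The groups overlapped through WT NX 4, at a log2FC of −1.12 (SE 0.32, adjusted p = 0.0269). The call was lost without any of WT NX 1, 2 and 5 and 5XFAD NX 2, with a highest adjusted p of 0.0699. Per3 was 55.5, 38.5, 41.4, 23.2 and 41.0 CPM in WT NX and 17.9, 13.1, 10.9, 36.4 and 19.8 CPM in 5XFAD NX. Here replicate 4 of each group lay within the range of the other group, and the log2FC was −1.02 (SE 0.31, adjusted p = 0.0369). Leaving out WT NX 4 or 5XFAD NX 4 kept the call, and leaving out any of the other 8 libraries lost it, with a highest adjusted p of 0.0989.

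Cry1 was 4.99 to 7.52 CPM in male WT NX and 3.02 to 4.73 CPM in 5XFAD NX, without overlap, yet its log2FC of −0.62 (SE 0.22) had an adjusted p of 0.0741. Per2 had a log2FC of −1.15 (SE 0.43, adjusted p = 0.0852), while Cry2 (−0.42, SE 0.25), Nr1d2 (−0.32, SE 0.24), Arntl (0.34, SE 0.20), Per1 (0.28, SE 0.17) and Clock (0.09, SE 0.23) were further from the threshold. Clock was 29.9, 32.0 and 29.5 CPM in 5XFAD NX 1 to 3 and 65.3 and 60.9 CPM in 5XFAD NX 4 and 5, against 38.2 to 44.6 CPM in WT NX. Replicates 1 to 3 were thus below the whole WT range and the last pair above it, and the sign of the log2FC of Clock turned with scaling by library size alone. Without 5XFAD NX 4 and 5, an alternative added after the data were seen, 33.5% of all genes and 6 of the 10 were called, all 6 as lower. These were Per3 (log2FC −1.52, SE 0.24, adjusted p = 0.000228), Nr1d1 (−1.40, SE 0.28, adjusted p = 0.00139), Nr1d2 (−0.74, SE 0.18, adjusted p = 0.00559), Per2 (−1.71, SE 0.43, adjusted p = 0.00618), Clock (−0.43, SE 0.11, adjusted p = 0.00905) and Dbp (−0.92, SE 0.30, adjusted p = 0.0274). Scaling by library size alone moved the median of all genes by −0.19, gave 4 clock genes as lower, and turned 1545 higher and 1093 lower calls over all genes into 1076 and 2179.

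Marker lists moved between these male groups too. Border macrophage markers summed to 189 to 265 CPM in WT NX and 85.1 to 117 CPM in 5XFAD NX, with 4 of 6 called lower, and microglia markers to 29149 to 33166 and 20451 to 24308 CPM, with 5 of 8 lower. Astrocyte markers summed to 129 to 170 and 353 to 957 CPM, with 2 of 5 higher and 1 lower, and Gfap was at most 0.609 CPM in WT NX and 192 to 747 CPM in 5XFAD NX. Glucocorticoid-responsive genes summed to 516 to 628 and 636 to 721 CPM without overlap, with 3 of 8 tested higher and 1 lower. Of the 14 dissociation genes 6 were called lower and 1 higher, with sums of 1876 to 2515 and 1259 to 1912 CPM. Hypoxia-responsive genes summed to 215 to 274 and 409 to 555 CPM, with 6 of 9 tested higher. Oligodendrocyte markers had 2 of 5 higher, endothelial markers 1 higher and 1 lower of 5, neuron markers 1 of 5 lower and neutrophil markers none called. Their part in the levels of Nr1d1, Dbp and Per3 was not tested.

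In females in normoxia none of the 10 genes was called between 5XFAD NX and WT NX, where 13.9% of all genes were called. An unadjusted p under 0.05 (edgeR) was found for 3 of the 10 and for 4945 of the 14513 genes tested. The count of calls rested on the library labelled F 5XFAD NX 4. Dbp was 14.3, 26.5, 28.5 and 26.2 CPM in WT NX and 8.65, 6.99, 17.7, 22.9 and 10.0 CPM in 5XFAD NX, of which 22.9 CPM is that library. Nr1d1 was 10.3, 23.7, 15.7 and 12.5 CPM in WT NX and 6.22, 5.40, 10.4, 14.9 and 8.72 CPM in 5XFAD NX. In both genes this library and 5XFAD NX 3 lay above WT NX 1, the lowest WT NX library, so the groups overlapped also without F 5XFAD NX 4, and for Nr1d1 that library lay above WT NX 4 too. With all libraries the log2FC was −0.84 for Dbp (SE 0.36, adjusted p = 0.131) and −0.76 for Nr1d1 (SE 0.33, adjusted p = 0.137).

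Without F 5XFAD NX 4, 44% of all genes were called, and 5 of the 10 were lower in 5XFAD NX. These were Dbp (log2FC −1.15, SE 0.30, adjusted p = 0.0111), Nr1d1 (−1.03, SE 0.28, adjusted p = 0.0148), Cry2 (−0.55, SE 0.17, adjusted p = 0.0221), Cry1 (−0.52, SE 0.18, adjusted p = 0.038) and Per2 (−0.97, SE 0.35, adjusted p = 0.0442). Per3 had a log2FC of −1.004 (SE 0.37, adjusted p = 0.0517), and Per1 one of 0.41 (SE 0.20, adjusted p = 0.13). The median of the 10 genes was −0.41 with the library and −0.54 without it, against −0.02 and −0.04 for all genes. Scaling by library size alone moved the median of all genes by −0.15.

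With all libraries, marker lists differed between these female groups as well. Border macrophage markers summed to 143 to 266 CPM in WT NX and 67.5 to 129 CPM in 5XFAD NX without overlap, with 5 of 6 called lower, and microglia markers to 27194 to 30483 and 23302 to 25059 CPM, with 4 of 8 lower. Dissociation genes were positive in 14 of 14, with 3 called higher and sums of 2238 to 4359 and 3356 to 4907 CPM. Glucocorticoid-responsive genes had 2 of 9 higher, hypoxia-responsive genes 1 of 9 tested higher, astrocyte and endothelial markers each 1 of 5 higher and 1 lower, and oligodendrocyte markers 1 of 4 tested lower, while no neuron or neutrophil marker was called. Their part in the clock gene levels was not tested.

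Across the 4 comparisons of genotype, Per2, Per3, Cry1, Cry2, Nr1d1, Nr1d2 and Dbp had negative log2FC values in each and Per1 had a positive one in each. Per3 and Nr1d1 were called lower in 3 of the 4, Per2, Nr1d2 and Dbp in 2, Cry1 and Clock in 1, Cry2 in 0, and Per1 was called higher in 2. These counts use all libraries. Without F 5XFAD NX 4, Dbp, Nr1d1, Cry2, Cry1 and Per2 were called lower in female NX too. Of all genes, 13.9% were called in female NX, 51.9% in female CIH, 17.8% in male NX and 49% in male CIH. How many of all genes were called, or kept their sign, across these comparisons was not counted. The comparisons under NX and under CIH used different libraries.

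**Figure D3:**
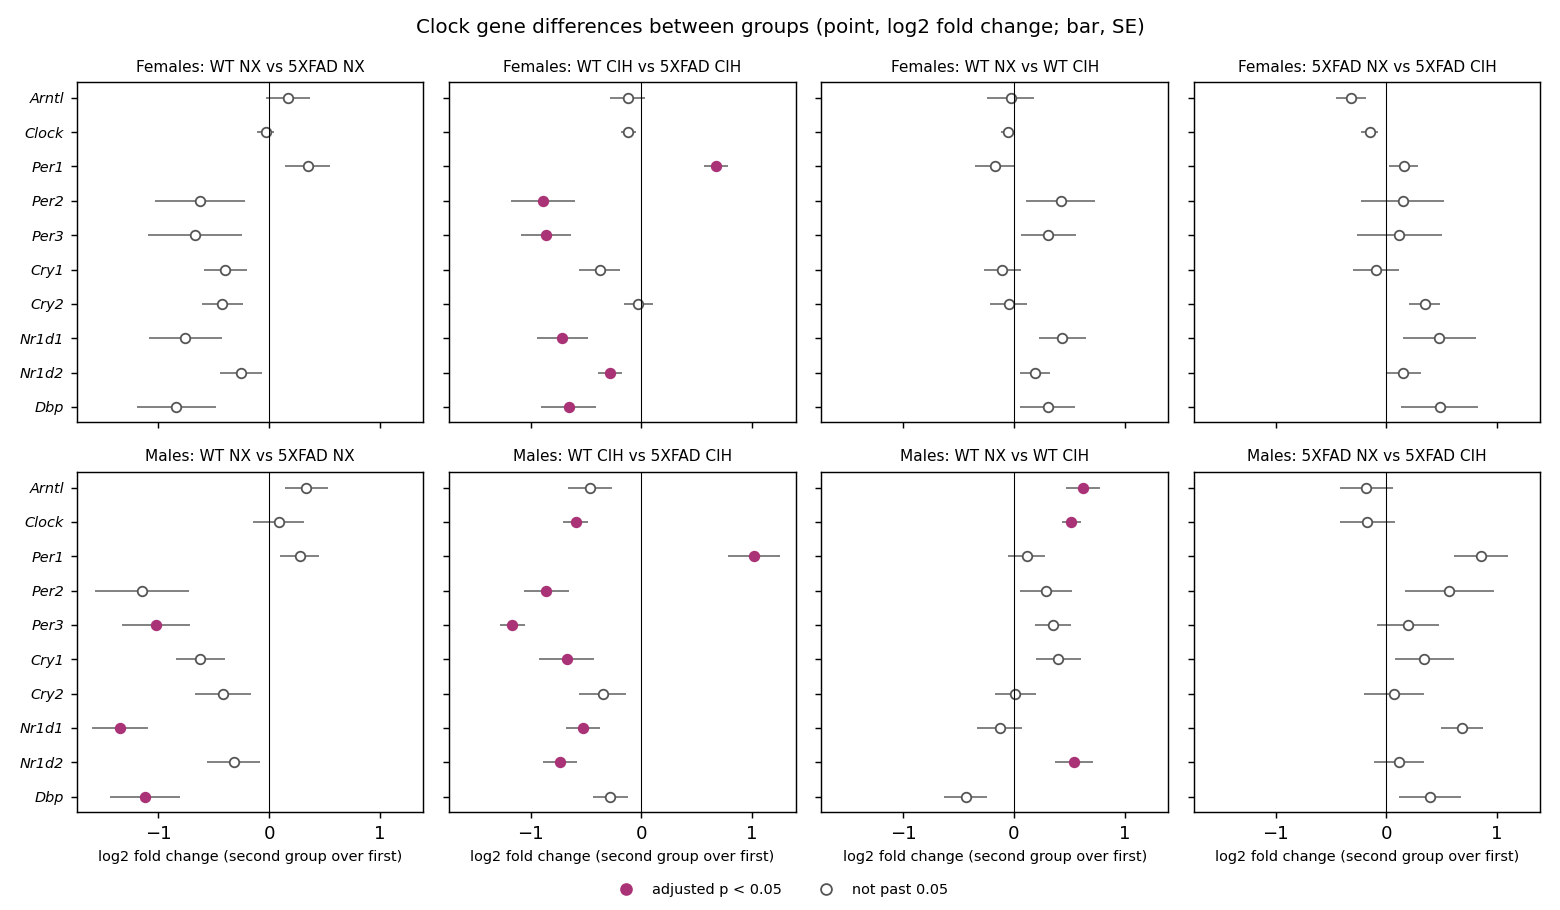
The log2 fold change of each clock gene in the comparisons of genotype and of treatment. Points give the log2FC, positive where the second-named group is higher, bars give its SE, and filled points are calls at an adjusted p under 0.05. Per1 lies right of 0 and Per3, Nr1d1 and Dbp lie left of 0 in every genotype comparison, while the calls of treatment are Arntl, Clock and Nr1d2 in WT males.

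The comparison of WT CIH with WT NX asked how the clock genes differed between exposed and unexposed mice without the transgenes. In males, Arntl, Clock and Nr1d2 were higher in WT CIH, 3 of the 10 genes against 28.6% of all genes called and 13.6% called higher, and none of the 10 was called lower. The median log2FC was 0.32 for the 10 and −0.01 for all genes. Arntl was 7.87, 7.63, 7.34, 10.1 and 9.76 CPM in WT NX and 12.6, 12.5, 13.3, 11.1 and 16.3 CPM in WT CIH. Every exposed library was above every normoxic one, with no overlap in 2 of the 10 genes and 17.3% of all genes, and with a log2FC of 0.63 (SE 0.15, adjusted p = 0.00702). Clock, its partner, was 42.1, 44.6, 41.3, 39.1 and 38.2 CPM in WT NX and 52.0, 62.1, 65.9, 54.9 and 59.7 CPM in WT CIH. These groups were also separate, at a log2FC of 0.52 (SE 0.09, adjusted p = 0.000757).

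Nr1d2 was 108, 109, 84.1, 56.9 and 75.7 CPM in male WT NX and 92.8, 105, 141, 149 and 143 CPM in WT CIH. The first and second libraries of both groups overlapped, and the log2FC was 0.54 (SE 0.17, adjusted p = 0.026). This call was lost without any of WT NX 3, 4 and 5 and WT CIH 3, 4 and 5, with a highest adjusted p of 0.0708. Per3 (log2FC 0.35, SE 0.16, adjusted p = 0.111) and Dbp (−0.43, SE 0.20, adjusted p = 0.111) were not called, and the log2FC of the other 5 lay between −0.13 and 0.40. Dbp was 14.9 to 38.8 CPM in WT NX and 19.7 to 26.3 CPM in WT CIH, a narrower range. When all 4 male groups entered a single fit, 0% of all genes and none of the 10 were called. Markers of neutrophils summed to 157 to 838 CPM in WT NX (median 328) and 75.5 to 204 CPM in WT CIH (median 91.2), with 4 of 5 called lower. Border macrophage markers summed to 189 to 265 and 122 to 261 CPM, with 3 of 6 lower, microglia markers to 29149 to 33166 and 25555 to 30072 CPM, with 3 of 8 lower, and glucocorticoid-responsive genes to 516 to 628 and 602 to 690 CPM, with 2 of 7 tested higher and 1 lower. Astrocyte markers had 1 of 4 tested higher, oligodendrocyte markers 1 of 5, hypoxia-responsive genes 1 of 9 and dissociation genes 1 of 14, and no endothelial or neuron marker was called. The part of these lists in these differences was not tested. Scaling by library size alone turned 2035 higher and 2244 lower calls over all genes into 2818 and 1551.

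In females no clock gene and 0% of all genes were called between WT NX and WT CIH with edgeR, while 565 genes had an unadjusted p under 0.05. Nr1d1 was 10.3, 23.7, 15.7 and 12.5 CPM in WT NX and 19.7, 20.2, 17.4, 20.9 and 26.9 CPM in WT CIH. It had the largest log2FC of the 10, 0.44 (SE 0.22, adjusted p = 0.96). Arntl had a log2FC of −0.03 (SE 0.21), with an interval of 2 SE from −0.45 to 0.40, and Clock one of −0.06 (SE 0.06), from −0.17 to 0.06. DESeq2 called 1 gene and limma and the edgeR likelihood ratio test 0, none of them a clock gene.

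The comparison of 5XFAD CIH with 5XFAD NX, which sets exposed against unexposed mice of the disease model, gave no call among the 10 genes in either sex. In males 0% of all genes were called with edgeR, and 473 had an unadjusted p under 0.05. DESeq2 and the edgeR likelihood ratio test each called 1 gene and limma 0. Per1 was 69.7, 69.6, 75.2, 58.5 and 73.2 CPM in male 5XFAD NX and 177, 186, 91.6, 79.5 and 89.5 CPM in 5XFAD CIH. Nr1d1 was 9.99, 7.02, 7.97, 10.8 and 7.46 CPM in 5XFAD NX and 12.5, 18.1, 13.8, 11.05 and 13.8 CPM in 5XFAD CIH. These were the 2 genes of the 10 whose groups did not overlap, against 0.781% of all genes, with a log2FC of 0.86 (SE 0.24) for Per1 and of 0.68 (SE 0.19) for Nr1d1, both at an adjusted p of 0.995. The sum of the 14 dissociation genes also separated these groups, at 1259 to 1912 CPM in 5XFAD NX and 1919 to 4141 CPM in 5XFAD CIH, with 14 of 14 positive, 9 at an unadjusted p under 0.05 and 0 called. Glucocorticoid-responsive genes summed to 636 to 721 and 709 to 1067 CPM, with 7 of 8 positive, 3 at an unadjusted p under 0.05 and 0 called. Endothelial markers separated the groups in the other direction, at 158 to 201 and 105 to 156 CPM, with 5 of 5 negative and 2 at an unadjusted p under 0.05, and neutrophil markers overlapped at 46.3 to 899.7 and 40.5 to 153 CPM, also with 5 of 5 negative and 2 at an unadjusted p under 0.05. No gene of these or the other marker lists was called here, and the part of the lists was not tested. Without 5XFAD NX 4 and 5 again none was called, with a lowest adjusted p of 0.495.

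Among female 5XFAD mice 0% of all genes were called for treatment with edgeR, DESeq2 or limma, and 470 had an unadjusted p under 0.05 with edgeR. Arntl was 12.9, 14.4, 13.9, 18.7 and 12.9 CPM in 5XFAD NX and 11.9, 10.4, 11.4, 14.3 and 10.1 CPM in 5XFAD CIH. It overlapped through 5XFAD CIH 4, at a log2FC of −0.32 (SE 0.14, adjusted p = 0.998). Cry2 was 7.95, 6.53, 8.44, 10.9 and 8.04 CPM against 10.1, 11.2, 12.3, 9.02 and 10.4 CPM (log2FC 0.35, SE 0.14, adjusted p = 0.998), and the log2FC of the other 8 lay between −0.15 and 0.48. Without F 5XFAD NX 4 the log2FC was −0.21 for Arntl (SE 0.12, unadjusted p = 0.101, against 0.0397 with the library), 0.47 for Cry2, 0.78 for Dbp and 0.74 for Nr1d1, none was called, and the lowest adjusted p of the 10 was 0.623.

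Whether the difference between CIH and NX depended on the genotype was tested as an interaction, the log2FC of CIH in 5XFAD minus that in WT. No clock gene and 0% of all genes were called in males, where 3857 genes had an unadjusted p under 0.05, nor in females, where 0% were called and 589 had one (edgeR). DESeq2 called 945 genes (5.98%) and the edgeR likelihood ratio test 248 (1.57%) in males, with no clock gene among them, and limma called 0, while in females all 3 gave 0. In males the estimates were 0.83 for Dbp (SE 0.37, adjusted p = 0.18), 0.81 for Nr1d1 (SE 0.30, adjusted p = 0.13), −0.81 for Arntl (SE 0.28, adjusted p = 0.123), 0.73 for Per1 (SE 0.31, adjusted p = 0.165) and −0.69 for Clock (SE 0.27, adjusted p = 0.138). Without M 5XFAD NX 4 and 5 they were 0.62, 0.86, −0.61, 0.69 and −0.17 in the same order, with no call and 1619 genes at an unadjusted p under 0.05. For Arntl and Clock, the mean in CIH was above that in NX in WT males, 13.2 ± 1.93 against 8.55 ± 1.30 CPM for Arntl, and the means of the 5XFAD groups were 9.48 ± 2.77 and 10.8 ± 2.49 CPM. In females each adjusted p was at least 0.952, and at least 0.962 without F 5XFAD NX 4. Scaling by library size alone moved the median of all male genes by −0.18 here and turned the sign of Cry2 in males and of Cry1 and Nr1d1 in females, all of which lay near 0.

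Several clock genes varied together between libraries of the same group. In females, the library WT NX 1 was the lowest of its group for Per2, Per3, Nr1d1, Nr1d2, Dbp and Cry2 and the highest for Arntl and Cry1. In males, WT NX 4 was the lowest of its group for Per1, Per2, Per3, Nr1d1, Nr1d2, Dbp and Cry2 and the highest for Arntl. To describe this, 6 pairs of genes with known links in the loop were correlated in each table over deviations of log2 CPM from the mean of the group, 12 relations in all, with permutation tests and adjustment over the 12. Libraries of a group share that group's mean, and depth and dissociation are shared by all genes of a library.

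In females Dbp and Per3 deviated with the same sign in 19 of 19 libraries (Pearson r = 0.94, permutation p = 2e-05, the smallest that 100000 resamples can give, adjusted p = 0.00024, Spearman rho = 0.88, adjusted p = 0.00024). Without the 2 libraries farthest from the median r was again 0.94. Dbp and Nr1d1 had an r of 0.83 (permutation p = 4e-05, adjusted p = 0.00024, rho = 0.80, adjusted p = 0.0006) and 0.82 without the 2 farthest libraries. Nr1d1 and Nr1d2 had an r of 0.78 (permutation p = 0.00014, adjusted p = 0.00056, rho = 0.73, adjusted p = 0.00168) and 0.70 without the 2 farthest.

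Female Arntl did not follow the inverse of these genes past the threshold. Its r was −0.20 with Dbp (permutation test, adjusted p = 0.443), 0.014 with Nr1d1 (adjusted p = 0.954) and −0.30 with Per2 (adjusted p = 0.31). Without F 5XFAD NX 4, where Arntl and Per2 were both the highest of the group, r was −0.57 for Arntl and Per2 (permutation test, adjusted p = 0.0237), −0.46 for Arntl and Dbp (adjusted p = 0.0808) and −0.19 for Arntl and Nr1d1 (adjusted p = 0.461). The other 3 female relations kept their calls without it, at 0.93 for Dbp and Per3, 0.78 for Dbp and Nr1d1 and 0.72 for Nr1d1 and Nr1d2. As a description of all 45 pairs, the closest in females were Per2 with Dbp at 0.97, Per3 with Nr1d2 at 0.95 and Per2 with Per3 at 0.95, while Per1 with Dbp was 0.11.

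In males Arntl and Dbp deviated in opposite directions, with r = −0.72 (permutation p = 0.00038, adjusted p = 0.00114, rho = −0.69, adjusted p = 0.00282), opposite signs in 14 of 20 libraries, and r = −0.72 again without the 2 farthest libraries. Dbp and Nr1d1 had an r of 0.61 (permutation p = 0.00468, adjusted p = 0.0112, rho = 0.61, adjusted p = 0.0128), which fell to 0.34 without the 2 farthest libraries and to 0.39 without WT NX 4 alone, so it rested on them. Nr1d1 and Nr1d2 had an r of 0.51 (permutation p = 0.0197, adjusted p = 0.0395) but a rho of 0.42 (adjusted p = 0.132) and an r of 0.29 without the 2 farthest. That call was also lost without any of 6 single libraries, WT NX 2 and 4, WT CIH 4, 5XFAD NX 2 and 4 and 5XFAD CIH 2, with the lowest r, 0.34, without WT NX 4.

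Male Dbp and Per3 had an r of 0.31 (permutation test, adjusted p = 0.296), while Arntl had one of −0.22 with Nr1d1 (adjusted p = 0.416) and −0.27 with Per2 (adjusted p = 0.321). Leaving out 5XFAD NX 3 took Dbp and Per3 to 0.50 (permutation test, adjusted p = 0.0485). Without 5XFAD NX 4 and 5, over 18 libraries, r was 0.65 for Dbp and Per3 (permutation test, adjusted p = 0.0114), −0.62 for Arntl and Per2 (adjusted p = 0.0114), −0.64 for Arntl and Dbp (adjusted p = 0.00979), 0.65 for Dbp and Nr1d1 (adjusted p = 0.00979), 0.56 for Nr1d1 and Nr1d2 (adjusted p = 0.0224) and −0.23 for Arntl and Nr1d1 (adjusted p = 0.433). Of all 45 male pairs, Per2 with Per3 at 0.88 and Clock with Nr1d2 at 0.78 were among the closest, and Nr1d2 with Dbp was 0.01. The difference in r between the tables was not tested.

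**Figure D4:**
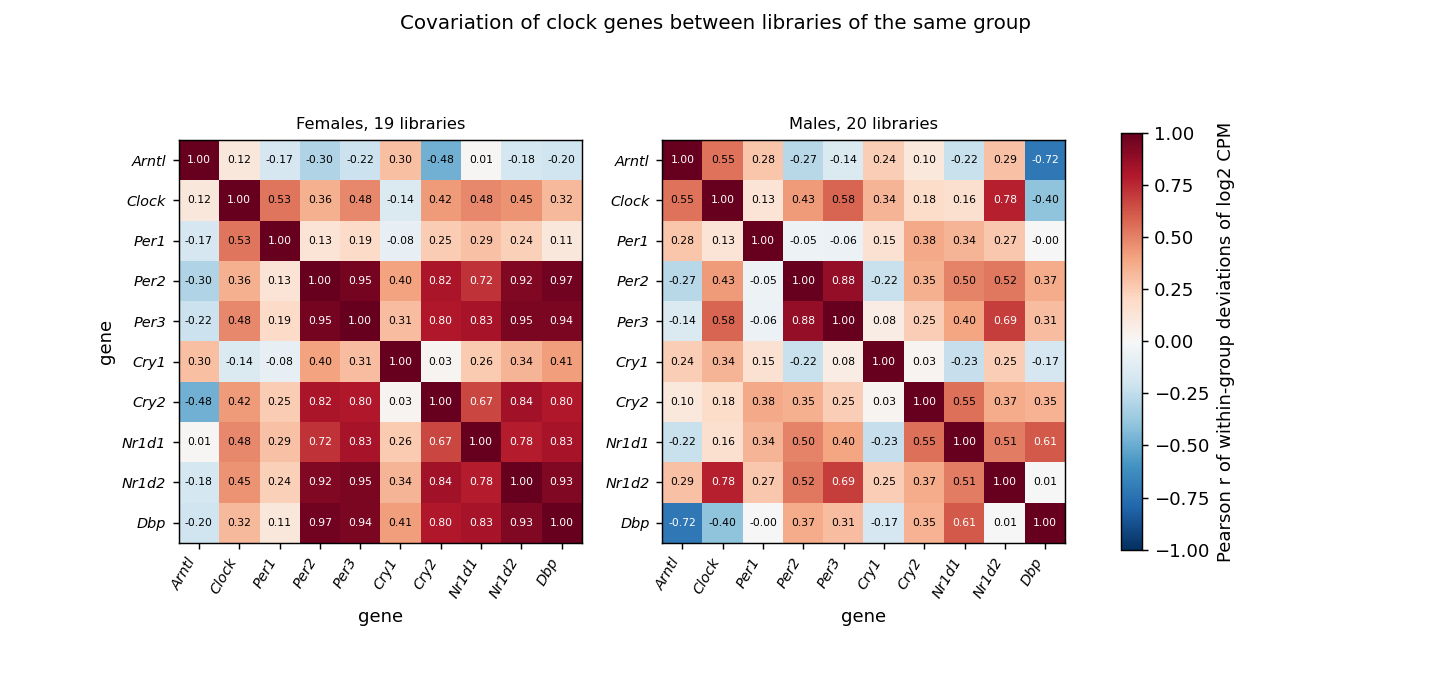
Pearson r of the within-group deviations of log2 CPM for every pair of the 10 clock genes, over 19 female libraries in the left grid and 20 male libraries in the right, with genes on both axes and r as printed number and colour. In females Per2, Per3, Nr1d1, Nr1d2, Dbp and Cry2 form a dark block, with 0.94 for Dbp and Per3, while in males Arntl and Dbp stand at −0.72 and Dbp and Per3 at 0.31.

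The genes most like Dbp in the females, by the correlation of the same deviations over 19 libraries among 15581 genes, were Per2 (0.97), Tef (0.95), Per3 (0.94), Nr1d2 (0.93) and Cenpo (0.90). The first 4 stayed the same without F 5XFAD NX 4. Tef is a D-box activator of the same family as Dbp, and Nfil3, a repressor at the D-box, had a correlation of −0.82 and ranked 15567. For Arntl the closest female genes were Fam221a (0.83), Cacnb3 (0.80), Ccdc120, Gm5422 and Cenpm (each 0.78), of which Fam221a and Cacnb3 stayed among the 5 closest without F 5XFAD NX 4. In males, none of the 5 genes most like Dbp, among 15812 over 20 libraries, was a clock gene. They were Suclg2 (0.84), Tmem268 (0.82), Med22 (0.80), Ykt6 (0.80) and Vti1a (0.79), while Nr1d1 ranked 264, Per2 2509 and Arntl 15788. The 5 most like Arntl in males were C530005A16Rik (0.82), Bnc2 (0.81), Ccdc6 (0.80), Pnpla8 (0.79) and Socs6 (0.78).

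Spread within groups also differed among the 10 genes. In females the SD of log2 CPM within groups was 0.63 for Per2, 0.62 for Per3, 0.56 for Dbp and 0.51 for Nr1d1, and each exceeded that of at least 93.2% of the 500 genes closest in mean level. Clock had an SD of 0.10, below most genes of its level, with 22.8% of them lower, and the median over all genes was 0.24. Arntl, Cry1 and Cry2 had SDs of 0.30, 0.30 and 0.26. Without F 5XFAD NX 4 the SDs were 0.58 for Per2, 0.56 for Per3, 0.51 for Dbp and 0.47 for Nr1d1, with a median of 0.19 over all genes. In males Per2 (0.62), Dbp (0.48) and Per3 (0.42) led again, the median over all genes was 0.36, and Arntl had an SD of 0.31, with 36.4% of its 500 like-level genes lower. The male Clock SD of 0.32 held the split of 5XFAD NX.

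Other genes of the pathway were taken from a list of 22, of which Npas2 and Arntl2 were among those that did not pass the filter on low levels. Of 18 tested between female WT CIH and 5XFAD CIH, 6 were higher in 5XFAD and 6 lower, or 66.7% called against 51.9% of all genes. In males under CIH 6 were higher and 7 lower of 19, or 68.4% against 49% of all genes. In male normoxia 5 were higher and 3 lower of 18 (44.4%, against 17.8%), and without M 5XFAD NX 4 and 5 they were 3 and 7, where 33.5% of all genes were called. Female normoxia gave 2 higher and 1 lower of 18 (16.7%, against 13.9%), and 5 and 7 without F 5XFAD NX 4, where 44% of all genes were called. Between WT NX and WT CIH males, 5 were higher and 0 lower in WT CIH, a share of 27.8% near the 28.6% of all genes, and the other comparisons of treatment gave none.

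The D-box factors related to Dbp were among the lower ones. Tef was 225 ± 37.9 CPM in female WT CIH and 131 ± 27.1 CPM in 5XFAD CIH (log2FC −0.77, SE 0.14, adjusted p = 0.000551), and 193 ± 17.8 and 107 ± 7.71 CPM in males (log2FC −0.84, SE 0.09, adjusted p = 3.55e-06). Hlf, the third activator of that family, had a log2FC of −2.21 in females (SE 0.14, adjusted p = 5.21e-08), and in males it was 26.7 ± 5.97 CPM in WT CIH and 6.61 ± 2.81 CPM in 5XFAD CIH (adjusted p = 2.05e-05). Nfil3, which represses at the same elements, was higher in 5XFAD CIH, with a log2FC of 1.56 in females (SE 0.18, adjusted p = 1.19e-05) and of 1.51 in males (SE 0.25, adjusted p = 0.00017). In male normoxia Tef (−0.82, SE 0.19), Hlf (−1.90, SE 0.27) and Nfil3 (2.11, SE 0.26) were called in the same directions. In female normoxia none of the 3 was called, with a log2FC of −0.61 for Tef (SE 0.27, adjusted p = 0.14), −1.36 for Hlf (SE 0.63, adjusted p = 0.157) and 1.18 for Nfil3 (SE 0.43, adjusted p = 0.0906). Without F 5XFAD NX 4 all 3 were, at −0.82 (SE 0.22, adjusted p = 0.0125), −2.33 (SE 0.35, adjusted p = 0.000564) and 1.37 (SE 0.35, adjusted p = 0.0101).

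Bhlhe40, a repressor that competes at the E-box and is also a gene of activated microglia, had the largest difference of the list. Its mean level was 5.55 ± 1.24 CPM in female WT CIH and 99.7 ± 10.7 CPM in 5XFAD CIH, a log2FC of 4.18 (SE 0.13, adjusted p = 5.55e-11), and its male log2FC was 4.44 under CIH (SE 0.25, adjusted p = 7.47e-09) and 4.51 in normoxia (SE 0.26, adjusted p = 2.11e-07). The library labelled F 5XFAD NX 4 had 5.30 CPM of Bhlhe40, within the range of the WT libraries, and 30.9 CPM of Hlf. In female normoxia Bhlhe40 had a log2FC of 2.96 with this library (SE 0.92, adjusted p = 0.057) and of 3.24 without it (SE 0.62, adjusted p = 0.00233). Bhlhe41, its paralog, was higher under CIH in females (log2FC 0.59, SE 0.06) and in males (0.90) and in male normoxia (0.44, SE 0.11). In female normoxia its log2FC was 0.37 (SE 0.17, adjusted p = 0.159), and 0.50 without F 5XFAD NX 4 (SE 0.07, adjusted p = 0.000322). Rora, the activator that opposes REV-ERB at Arntl, was called higher in 5XFAD in each of the 4 comparisons, with a log2FC of 1.02 in female NX, 0.85 in female CIH, 1.06 in male NX and 0.53 in male CIH. Without M 5XFAD NX 4 and 5 its male NX call was lost, at 0.35 (SE 0.24, adjusted p = 0.288). Csnk1e, a kinase that marks PER proteins for decay, was called lower in all 4, at −0.39 to −0.43.

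In WT males under CIH, Nfil3 (log2FC 0.78), Tef (0.34) and the kinase genes Gsk3b (0.31) and Csnk1a1 (0.30) were among those called higher than in WT NX. Csnk1a1 and Gsk3b were in turn lower in 5XFAD males than in WT males under CIH, at −0.53 and −0.40. Both comparisons use the same WT CIH libraries.

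**Figure D5:**
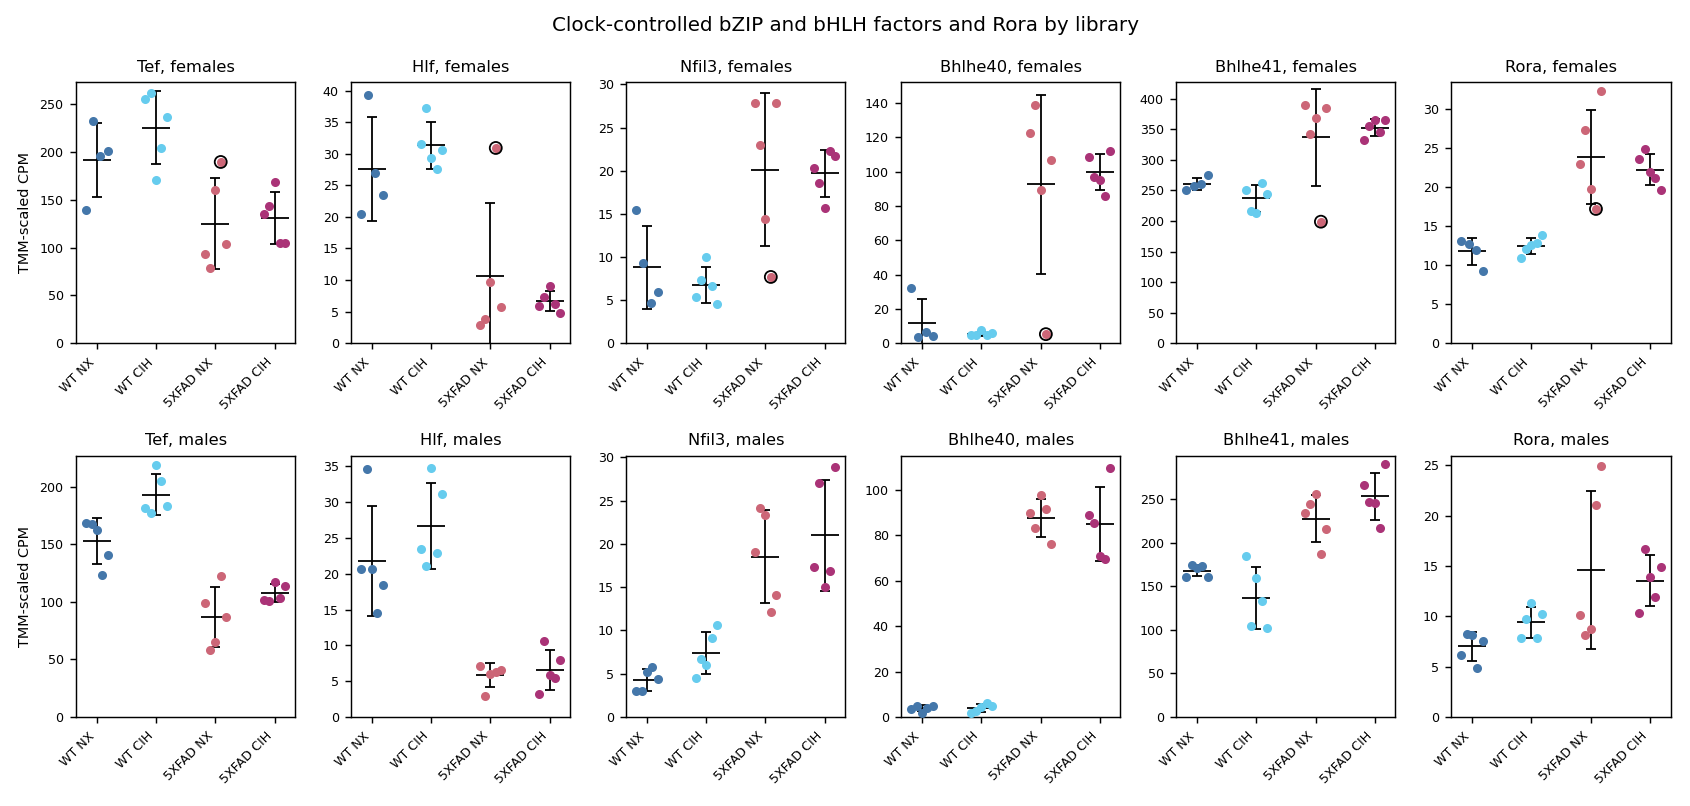
Tef, Hlf, Nfil3, Bhlhe40, Bhlhe41 and Rora in the female and male groups, as TMM-scaled CPM on the y axis, with a point per library and bars for the mean ± SD. The circled female point is the library labelled F 5XFAD NX 4, at 5.30 CPM of Bhlhe40 in a group whose mean is 92.6 CPM.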

How the data were processed

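Messenger RNA of CD11b+ microglia was sequenced in 39 libraries, and the authors deposited a table of read counts per gene and FPKM values (fragments per kilobase, scaled by sequencing depth) for each sex. Per the labels and the submitters' processing notes, reads were aligned with HISAT2 to GRCm38 (mm10). The counting tool and its use of strand are not given in the sources used here. The female FPKM values deposited by the authors use the library's count total, and the male ones a total of 0.794 to 1.20 times it.

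Here genes with a CPM above 1 in at least 3 libraries of a comparison were fitted with TMM scaling and edgeR 4.0.16 (R 4.3.3, quasi-likelihood test), 1 fit per pair of groups and a fit of all 4 groups for the interaction, with Benjamini-Hochberg adjustment over all genes tested. A gene was called at an adjusted p under 0.05. All 10 clock genes passed this filter in every comparison. Log2FC is positive where the second-named group is higher. CPM per library are scaled across the whole table. Correlations used log2 CPM with a prior count of 1, centred within groups, and 100000 permutations. Likeness used the same centred values, with the 5 genes of highest correlation named. No 2 libraries of a group were near-identical in counts. The tests were run on simulated counts with the same spread for every gene and large changes, which does not show their error or power for the clock genes. Alternatives were DESeq2 1.42.0, limma 3.58.1 on log2 FPKM, the edgeR likelihood ratio test, other filters and scaling, a replicate block and leaving out each library. The clock genes, pathway list and marker lists were chosen with earlier results of these data known. The rule for named genes took every clock gene, and pathway genes called in a comparison, of which a part is described. Some single pathway genes are not reported here. Pathway and spread values without libraries that stand apart were added after the data were seen. The count totals per library limit precision, since 1 CPM stood for 13.5 to 25.9 reads.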

Additional observations from a re-analysis of the deposited data

Results flagged for a closer look

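Within each group of 4 or 5 libraries, the gap of the highest or lowest library to its nearest neighbour was compared with the range of the group for each of the 10 clock genes, and 4 of 80 such sets exceeded Dixon's 95% limit. Chance flags about 1 in 20 groups, which is 4 of 80. Arntl was 18.7 CPM in the library labelled F 5XFAD NX 4, with the other 4 of that group at 12.9 to 14.4 CPM. Cry1 was 10.6 CPM in F WT NX 1, with the other 3 at 7.53 to 7.84 CPM. Dbp was 14.3 CPM in the same library, with the other 3 at 26.2 to 28.5 CPM. Cry1 was 8.26 CPM in M 5XFAD CIH 1, with the other 4 at 3.61 to 4.95 CPM.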

How the results depend on the processing

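Between male WT NX and 5XFAD NX, where 3 clock genes and 17.8% of all genes were called, DESeq2 called 5 (Per2, Per3, Cry1, Nr1d1 and Dbp, with 23% of all genes), the replicate block 1 (Nr1d1, with 8.83%), and leaving out both M 5XFAD NX 4 and 5, chosen after seeing the data, 6 (with 33.5%). Between male WT NX and WT CIH, where 3 were called, no filter on low counts gave 5 (Arntl, Clock, Per3 and Nr1d2 higher and Dbp lower, with 11.7% of all genes called) and a single fit of all 4 groups gave 0 (with 0%). For the male interaction, with 0 called, no filter gave 2 (Clock and Per1, with 4.57% of all genes). The adjusted p of Dbp in female WT CIH against 5XFAD CIH was 0.0642 with DESeq2, 0.0577 with the replicate block and 0.093 in a single fit of all 4 groups, in which Nr1d2 was at 0.124. Among correlations, female Arntl and Dbp turned to 0.092 on log2(FPKM + 1) and to 0.10 with library size alone, which also turned female Arntl and Per2 to 0.0014 and male Arntl and Nr1d1 to 0.059. Without the 2 farthest libraries, male Dbp and Nr1d1 went to 0.34 and Nr1d1 and Nr1d2 to 0.29, and without M 5XFAD NX 4 and 5 male Arntl and Per2 went to −0.62 and Dbp and Per3 to 0.65. The cause of these changes was not tested.

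Leaving out 1 library at a time gave 0 to 5 calls in female WT NX against 5XFAD NX (5 without F 5XFAD NX 4, with 44% of all genes), 3 to 7 in female WT CIH against 5XFAD CIH (3 without F WT CIH 1 or F 5XFAD CIH 5), 1 to 4 in male WT NX against 5XFAD NX (1 without M WT NX 1, 2 or 5 or M 5XFAD NX 2), 2 to 4 in male WT NX against WT CIH, 6 to 8 in male WT CIH against 5XFAD CIH, and 0 in the other 5 comparisons. The share of all genes called in the other refits is not given here, so these changes cannot be read as particular to the clock genes. The range of r was −0.19 to 0.19 for female Arntl and Nr1d1, below 0 without any of F WT NX 2 and 4, F 5XFAD NX 1 and 4 and F 5XFAD CIH 5, −0.46 to −0.037 for female Arntl and Dbp, −0.57 to −0.15 for female Arntl and Per2, 0.063 to 0.50 for male Dbp and Per3, 0.39 to 0.75 for male Dbp and Nr1d1 and 0.34 to 0.58 for male Nr1d1 and Nr1d2. For male Arntl it was −0.43 to −0.090 with Nr1d1 and −0.41 to −0.20 with Per2. Of 190 refits of a called clock gene without 1 library, 151 kept the call, 39 lost it and 0 changed sign, and of 174 under the other settings 165 kept it, 9 lost it and 0 changed sign.

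Replicate numbers did not pair the libraries. The correlation of same-numbered libraries ran from −0.55 to 0.31, in no comparison was it above 0.1 for every pair, and at most 2 libraries of a comparison correlated best with their own number. It was above 0.1 for 3 of 5 pairs in female 5XFAD NX against 5XFAD CIH and in male WT CIH against 5XFAD CIH. With the replicate block, calls over all genes in female WT NX against 5XFAD NX went from 2013 to 7, and the clock gene calls that changed were Per3 and Dbp in male normoxia and Dbp in females under CIH. With 4 or 5 libraries a group, a difference that missed the threshold is not shown to be absent.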
